A study of Mus musculus with 9 samples.

Results

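Eomes, Tbx21 (which encodes T-bet), Prdm1 (Blimp-1), Zeb2 and Hopx are transcriptional regulators that govern the differentiation of natural killer (NK) cells and other cytotoxic lymphocytes. They were taken as the rows of the expression table whose platform symbol is 1 of these 5 names. Each gene had 1 such row, so 5 of 19938 genes tested are described here. The study sorted innate intraepithelial lymphocytes, the lymphocytes that lie between the epithelial cells of the gut, from the small intestine of NOD SCID mice 8 to 10 weeks old, a strain that carries the scid mutation and lacks mature T and B cells, and measured total RNA on Affymetrix Mouse Gene 1.0 ST arrays. All cells were CD3- and CD45+. The 3 populations were Ly49E+CD8aa+, Ly49E+CD8aa- and Ly49E-CD8aa+, where Ly49E is an NK receptor encoded by Klra5 and CD8aa is a receptor made of a pair of CD8 alpha chains, with 3 arrays each labelled as biological replicates. The labels give no treatment and do not state how many mice stand behind each array. Values are log2 expression values, and a difference of 1 is a doubling of signal.

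As background, T-bet and Eomes bind the same short DNA element through their T-box domain and together drive the development and effector functions of NK cells, T-bet also being needed for the innate lymphoid cells of group 1, many of which lack Eomes. Blimp-1 is a zinc finger repressor that is induced by cytokines and acts with T-bet in cytotoxic maturation and in the residency of lymphocytes in tissues. Zeb2 is a zinc finger repressor that acts downstream of T-bet in terminal maturation, and it is also used by plasmacytoid dendritic cells and macrophages. Hopx is a small homeodomain protein that does not bind DNA itself and is raised in effector lymphocytes and in some epithelial stem cells.

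The sort markers gave a first check of the populations. The difference of Klra5 was 4.80 on the log2 scale for Ly49E+CD8aa+ minus Ly49E-CD8aa+, and that of Cd8a was 1.13 for Ly49E+CD8aa+ minus Ly49E+CD8aa- (limma adjusted p = 0.0029 and 0.000113). Cd8a still read 11.42 in Ly49E+CD8aa-. Cd8b1, the CD8 beta chain gene, read 8.34 in Ly49E+CD8aa- and 5.28 and 5.30 in the CD8aa+ populations, a difference of -3.06 in Ly49E+CD8aa+ minus Ly49E+CD8aa- (adjusted p = 9.93e-07). Cd3e, a chain of the CD3 complex that the gate left out at the cell surface, had transcript levels of 11.75, 10.70 and 11.67 for Ly49E+CD8aa+, for Ly49E+CD8aa- and for Ly49E-CD8aa+. On all arrays the median lay between 5.76 and 5.82 and the 25th percentile between 4.40 and 4.47. No calls of detection were used, so low values leave undecided whether the RNA was there, and in sorted bulk RNA fewer cells of a type and less RNA per cell cannot be told apart.

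2 of the 5 genes separated Ly49E+CD8aa- cells from both CD8aa+ populations. The measured signal of Eomes was higher there, by a log2 difference of 2.57 against Ly49E-CD8aa+ and more against Ly49E+CD8aa+, and Prdm1 was lower, 1.43-fold and 1.44-fold. The means of Tbx21, Zeb2 and Hopx differed by at most 0.32 on the log2 scale, that of Tbx21 between the Ly49E+ populations, where it was -0.32. By the moderated F test of limma over the 3 populations, with adjustment over all genes, Eomes (adjusted p = 0.000273) and Prdm1 (adjusted p = 0.0118) passed the threshold of 0.05, as did 2.03% of all genes. Tbx21 (adjusted p = 0.179), Zeb2 (adjusted p = 0.533) and Hopx (adjusted p = 0.726) did not.

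**Figure D1:**
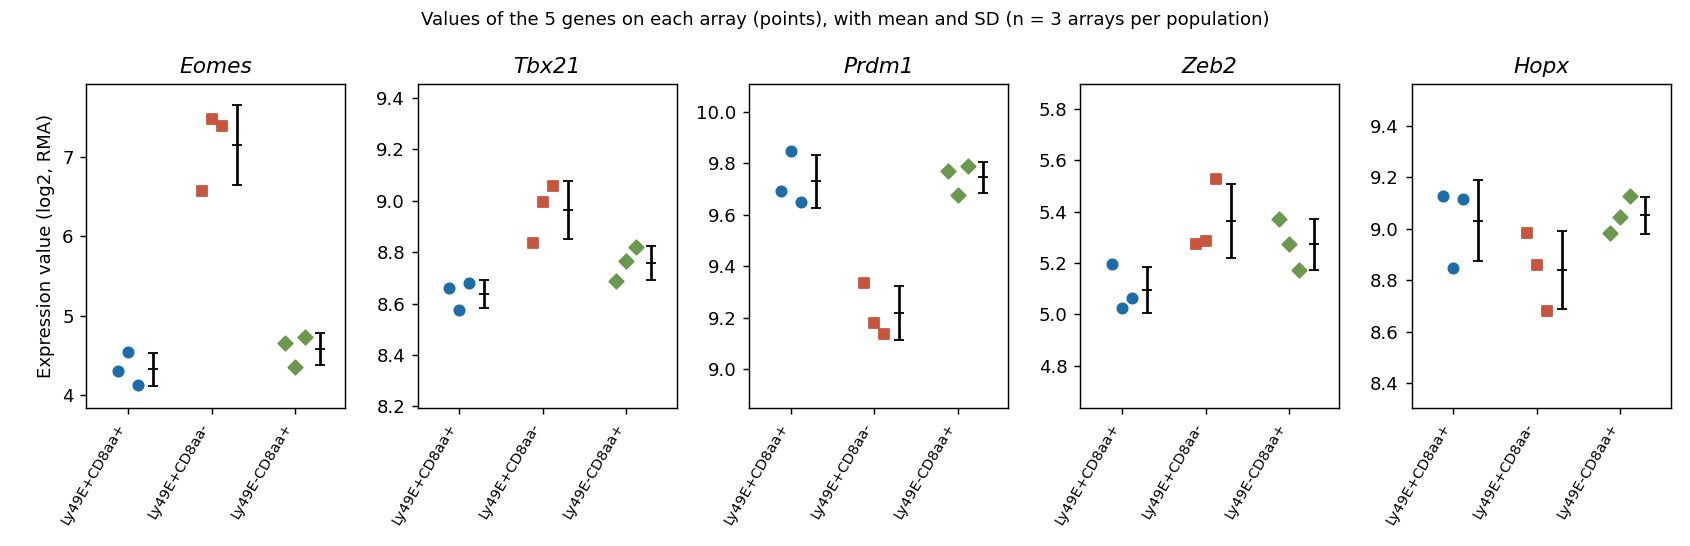
Expression values (log2, y axes with a separate range for each gene) of Eomes, Tbx21, Prdm1, Zeb2 and Hopx on each of the 9 arrays, with the mean and SD of each population (n = 3) in black. Eomes lies at 6.57 to 7.48 in Ly49E+CD8aa- and at 4.12 to 4.73 in the other populations, and Prdm1 lies lower in Ly49E+CD8aa- than in both CD8aa+ populations.

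The stretches before the start sites are shown for Eomes and Prdm1, which passed, and for Tbx21, which did not. The proteins of these genes and Zeb2 bind short DNA motifs that can be searched for there. They are the 250 bases up to the start site, 5′ to 3′ on the gene's strand, from RefSeq (GRCm38.p6), at chr9:118477939-118478188 (plus strand) for Eomes, chr11:97115332-97115581 (minus strand) for Tbx21 and chr10:44458749-44458998 (minus strand) for Prdm1. Capitals mark matches, on either strand, to the T-box half-site GGTGTGA, the E-box CAGGTG that Zeb proteins bind and the Blimp-1 core AGNGAAAG, the first 2 of which can overlap in GGTG.
Eomes: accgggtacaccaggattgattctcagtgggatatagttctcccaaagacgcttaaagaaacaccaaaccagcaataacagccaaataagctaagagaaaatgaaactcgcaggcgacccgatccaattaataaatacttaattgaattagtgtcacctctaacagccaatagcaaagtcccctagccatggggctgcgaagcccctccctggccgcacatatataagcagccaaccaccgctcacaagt
Tbx21: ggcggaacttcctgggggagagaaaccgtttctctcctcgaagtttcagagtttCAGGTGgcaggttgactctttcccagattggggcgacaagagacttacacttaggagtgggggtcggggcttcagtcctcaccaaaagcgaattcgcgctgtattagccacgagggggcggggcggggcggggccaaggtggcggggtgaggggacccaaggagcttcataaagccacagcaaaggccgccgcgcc
Prdm1: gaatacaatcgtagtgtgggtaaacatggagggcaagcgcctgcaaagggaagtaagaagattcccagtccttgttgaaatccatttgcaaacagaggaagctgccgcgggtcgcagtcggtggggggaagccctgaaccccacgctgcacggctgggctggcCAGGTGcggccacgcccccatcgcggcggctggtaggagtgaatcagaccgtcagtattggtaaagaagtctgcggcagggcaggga

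Tbx21 and Prdm1 each held 1 Zeb E-box, starting at base -196 and base -87 from the start site, and Eomes held no match to any of the 3 motifs. Of the windows not shown, Zeb2 windows 2 and 3, which overlap, held a Blimp-1 core match, at base -183 and base -209. The other Zeb2 windows and those of Hopx held no match. Of 32851 such windows in the table, 17.2% held the Zeb E-box, 3.33% the T-box half-site and 7.3% the Blimp-1 core. A match is only a description of the letters in this window.

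Eomes encodes the T-box factor that marks conventional NK cells. Its values were 6.57, 7.48 and 7.40 in replicates 1, 2 and 3 of Ly49E+CD8aa-, 4.30, 4.53 and 4.12 for Ly49E+CD8aa+, and 4.66, 4.35 and 4.73 for Ly49E-CD8aa+. All arrays of Ly49E+CD8aa- were above all others, and the CD8aa+ populations overlapped, both near the 25th percentile of the arrays. The means were 7.15 ± 0.503, 4.32 ± 0.207 and 4.58 ± 0.2 in the same order of populations (SD, n = 3 each).

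With CD8aa present on Ly49E+ cells, Eomes was lower, with a log2 difference of -2.83 (Ly49E+CD8aa+ minus Ly49E+CD8aa-, SE 0.228, 95% interval -3.34 to -2.31, limma adjusted p = 0.0002). Against Ly49E-CD8aa+ cells, Ly49E+CD8aa- cells were higher by 2.57 (SE 0.228, 95% interval 2.05 to 3.08, adjusted p = 0.000319). Both are differences of measured signal. The CD8aa+ values lay at about the 25th percentile, where RNA and background are not separated, so no fold of RNA is given. The comparisons share the arrays of Ly49E+CD8aa- and are not independent of each other. Between the CD8aa+ populations the difference was -0.26 (Ly49E+CD8aa+ minus Ly49E-CD8aa+, 95% interval -0.77 to 0.26, adjusted p = 1).

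Tbx21 encodes T-bet, the other T-box factor of NK cells. Its arrays read 8.84, 8.99 and 9.06 in Ly49E+CD8aa-, 8.66, 8.58 and 8.68 for Ly49E+CD8aa+, and 8.69, 8.76 and 8.82 for Ly49E-CD8aa+. The 3 populations thus did not overlap, in the order Ly49E+CD8aa-, Ly49E-CD8aa+ and Ly49E+CD8aa+ from high to low, but they lay close together. The means were 8.96 ± 0.113, 8.76 ± 0.066 and 8.64 ± 0.0549 in that order (SD, n = 3 each).

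None of the 3 differences of Tbx21 passed over all genes. It was -0.32 (SE 0.0757, 95% interval -0.50 to -0.15, adjusted p = 0.0871 by limma) for Ly49E+CD8aa+ minus Ly49E+CD8aa-, 0.20 (95% interval 0.03 to 0.37, adjusted p = 0.359) for Ly49E+CD8aa- minus Ly49E-CD8aa+, and -0.12 (95% interval -0.29 to 0.05, adjusted p = 1) for Ly49E+CD8aa+ minus Ly49E-CD8aa+. Arrays without overlap were also seen in 12.9%, 12.7% and 6.25% of all genes in these comparisons. Since each gene has its own probes, the levels of Eomes and Tbx21 cannot be set against each other, but the change of their log2 ratio between populations can be described. Eomes minus Tbx21 was -1.81 ± 0.399 in Ly49E+CD8aa-, -4.32 ± 0.26 in Ly49E+CD8aa+ and -4.18 ± 0.204 in Ly49E-CD8aa+ (SD, n = 3 each). These are descriptions with no test.

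Prdm1, which encodes Blimp-1, went the opposite way to Eomes. Its arrays read 9.34, 9.18 and 9.14 in Ly49E+CD8aa-, 9.69, 9.85 and 9.65 for Ly49E+CD8aa+, and 9.77, 9.68 and 9.79 for Ly49E-CD8aa+. The arrays of Ly49E+CD8aa- were below all others, and the CD8aa+ populations overlapped. The means were 9.22 ± 0.105, 9.73 ± 0.104 and 9.75 ± 0.06 in the same order (SD, n = 3 each).

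Prdm1 was higher in Ly49E+CD8aa+ relative to Ly49E+CD8aa-, by 0.51 (SE 0.0806, 95% interval 0.33 to 0.69, limma adjusted p = 0.0121), a 1.43-fold difference. In Ly49E+CD8aa- minus Ly49E-CD8aa+ the log2 difference was -0.53 (SE 0.0806, 95% interval -0.71 to -0.35, adjusted p = 0.00935), a 1.44-fold difference. Between the CD8aa+ populations it was -0.02 (95% interval -0.20 to 0.17, adjusted p = 1). The call of the first of these was lost by a small margin with the 6 arrays of that comparison alone (adjusted p = 0.0526) and without Ly49E+CD8aa+ replicate 2, Ly49E+CD8aa- replicate 2 or Ly49E+CD8aa- replicate 3 (0.0522, 0.0558 and 0.0598), with differences of 0.45 to 0.51. The F test of Prdm1 missed the threshold when Ly49E+CD8aa- replicate 2 or replicate 3 was left out (adjusted p = 0.0699 and 0.0744 by limma).

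Zeb2 encodes a repressor that acts in late effector cells. It read 5.27, 5.29 and 5.53 in Ly49E+CD8aa-, 5.20, 5.03 and 5.07 for Ly49E+CD8aa+, and 5.37, 5.27 and 5.17 for Ly49E-CD8aa+, all below the array medians. Ly49E+CD8aa+ arrays were below those of Ly49E+CD8aa- and overlapped with Ly49E-CD8aa+, which overlapped with Ly49E+CD8aa- in turn. The difference of -0.27 (Ly49E+CD8aa+ minus Ly49E+CD8aa-, SE 0.0915, 95% interval -0.47 to -0.06) did not pass over all genes by limma (adjusted p = 0.332), nor did -0.18 for Ly49E+CD8aa+ minus Ly49E-CD8aa+ (95% interval -0.38 to 0.03) or 0.09 for Ly49E+CD8aa- minus Ly49E-CD8aa+ (95% interval -0.12 to 0.30).

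Hopx encodes a homeodomain cofactor of effector lymphocytes. Its arrays read 8.98, 8.86 and 8.68 in Ly49E+CD8aa-, 9.13, 8.85 and 9.12 for Ly49E+CD8aa+, and 8.98, 9.05 and 9.13 for Ly49E-CD8aa+, and all populations overlapped. The differences were 0.19 for Ly49E+CD8aa+ minus Ly49E+CD8aa- (95% interval -0.04 to 0.42), -0.21 for Ly49E+CD8aa- minus Ly49E-CD8aa+ (95% interval -0.44 to 0.02) and -0.02 for Ly49E+CD8aa+ minus Ly49E-CD8aa+ (95% interval -0.25 to 0.21). None passed (adjusted p = 0.648, 0.537 and 1 by limma), and the intervals exclude a log2 difference of 0.5 in either direction.

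**Figure D2:**
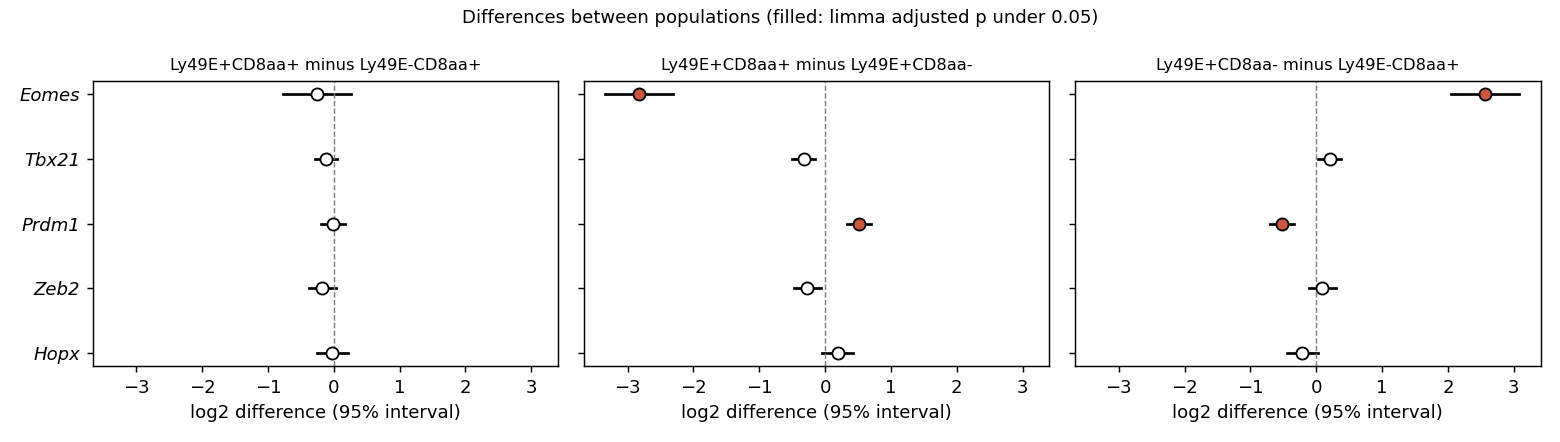
Log2 differences between populations (x axis, points) with 95% intervals from the limma fit for the 5 genes, 1 panel per comparison. Filled points passed the adjusted p of 0.05, which holds for Eomes and Prdm1 in the comparisons that involve Ly49E+CD8aa-. In Ly49E+CD8aa+ minus Ly49E-CD8aa+ every interval includes 0.

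Counted by comparison, the presence of Ly49E among CD8aa+ cells went with 0 of 5 calls by limma and 0 of 5 at an unadjusted p under 0.05, where 0.13% of all genes were called (0.0201% higher and 0.11% lower) and 4.18% had such a p. Arrays without overlap were seen for 0 of 5 genes in the higher direction (2.88% of all genes) and for 1 of 5, Tbx21, in the lower one (3.38%). CD8aa among Ly49E+ cells went with 2 of 5 calls (1.7% of all genes), 1 lower, Eomes (1.22%), and 1 higher, Prdm1 (0.476%). In this comparison 4 of 5 had an unadjusted p under 0.05 (9.43% of all genes), and arrays did not overlap for 1 higher gene, Prdm1 (7.41%), and for 3 lower ones, Eomes, Tbx21 and Zeb2 (5.52%). Ly49E+CD8aa- minus Ly49E-CD8aa+ had 2 of 5 calls (2.15% of all genes), Eomes higher (1.35%) and Prdm1 lower (0.802%), and 3 of 5 at an unadjusted p under 0.05 (10.4%). Arrays did not overlap for 2 higher genes, Eomes and Tbx21 (5.29%), and for 1 lower gene, Prdm1 (7.45%).

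Among genes that lead to or work with the T-box factors, 2 receptor genes and Gata3 were called in each comparison with Ly49E+CD8aa-. Ifngr1, the ligand-binding chain of the interferon gamma receptor, had a difference of -0.60 and Gata3, a factor of all innate lymphoid lineages, of -0.51 in Ly49E+CD8aa+ minus Ly49E+CD8aa- (adjusted p = 0.044 and 0.0366 by limma). Il2rb, the chain shared by the receptors for IL-2 and IL-15, was higher by 0.40 (adjusted p = 0.0248). These 3 were the called ones of 19 measured genes, 1 higher and 2 lower (0.476% and 1.22% of all genes). The median difference of the 19 was -0.03 against 0.03 over all genes. In Ly49E+CD8aa- minus Ly49E-CD8aa+ the same 3 genes were called by limma with 0.81, 0.47 and -0.36 (adjusted p = 0.00822, 0.0456 and 0.0344), as were 2.15% of all genes. Between the CD8aa+ populations 0 of 19 passed by limma (0.13% of all genes) and 2 had an unadjusted p under 0.05 (4.18%). The largest differences were those of Tox (-0.24) and Id2 (0.22), both regulators of innate lymphocyte development. Stat4, Il12rb2, Runx3 and Nfil3, which act with T-bet or Eomes, differed by 0.03, 0.05, -0.04 and -0.35 in Ly49E+CD8aa+ minus Ly49E+CD8aa- and did not pass. The calls of Il2rb, Gata3 and Ifngr1 were lost in 7, 9 and 11 of 18 alternatives in Ly49E+CD8aa+ minus Ly49E+CD8aa-, and in 11, 14 and 1 in Ly49E+CD8aa- minus Ly49E-CD8aa+.

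Of the 24 effector and receptor genes listed downstream of the T-box factors, 5 receptor genes had the largest differences, while the receptor genes Cxcr6 (-0.27), Cx3cr1 (-0.08) and S1pr5 (-0.15) did not pass in Ly49E+CD8aa+ minus Ly49E+CD8aa-. Ncr1, the activating NK receptor NKp46, was at 9.69 ± 0.0808 in Ly49E+CD8aa- and at 4.26 ± 0.437 and 4.40 ± 0.246 in Ly49E+CD8aa+ and Ly49E-CD8aa+ (SD, n = 3 each). Il18r1, a chain of the IL-18 receptor, was at 9.26 in Ly49E+CD8aa- and at 4.12 and 4.14 in the others, and its partner Il18rap at 7.79, 5.44 and 5.01. The inhibitory receptor gene Klrg1 and the chemokine receptor gene Cxcr3 had differences of -1.09 and -0.82 in Ly49E+CD8aa+ minus Ly49E+CD8aa-. There limma called these 5 of 24 genes lower (adjusted p from 3.25e-07 to 0.0163, 1.22% of all genes) and Prf1 and Il2rb higher (0.476%). The median over the 24 was 0.03, as over all genes.

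Among the cytotoxic effector genes, Prf1, which encodes perforin, was higher in Ly49E+CD8aa+ relative to Ly49E+CD8aa-, by 0.58 (adjusted p = 0.0197 by limma) and had a difference of -0.76 in Ly49E+CD8aa- minus Ly49E-CD8aa+ (adjusted p = 0.00393). The granzyme genes Gzma and Gzmb, open to cross-hybridisation within their family, had differences of 0.08 and 0.17 in Ly49E+CD8aa+ minus Ly49E+CD8aa- and did not pass. Ifng, the gene of interferon gamma, was at 7.02 ± 0.413 in Ly49E+CD8aa-, 6.25 ± 0.134 in Ly49E+CD8aa+ and 6.11 ± 0.601 in Ly49E-CD8aa+ (SD, n = 3 each) and did not pass either (adjusted p = 0.397 and 0.238 against Ly49E+CD8aa- in the order of the CD8aa+ populations). In Ly49E+CD8aa- minus Ly49E-CD8aa+, 6 of 24 were called higher (1.35% of all genes), the 5 receptor genes and the chemokine gene Xcl1 (0.50, limma adjusted p = 0.0166). In the same comparison 2 were lower (0.802%), Prf1 and Il2rb. By limma, 0 of 24 passed between the CD8aa+ populations (0.13% of all genes) and 1 had an unadjusted p under 0.05 (4.18%). The largest differences were in Il18rap (0.43) and Xcl1 (0.35). Il2rb is also in the list of inducers and partners, and Ncr1, Klrg1, Prf1 and Gzma are also in the list of NK cell markers. The calls of Klrg1 and Prf1 against Ly49E+CD8aa+ and of Xcl1 were each lost in 5 of 18 alternatives, and those of Cxcr3 in 1 and 6.

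**Figure D3:**
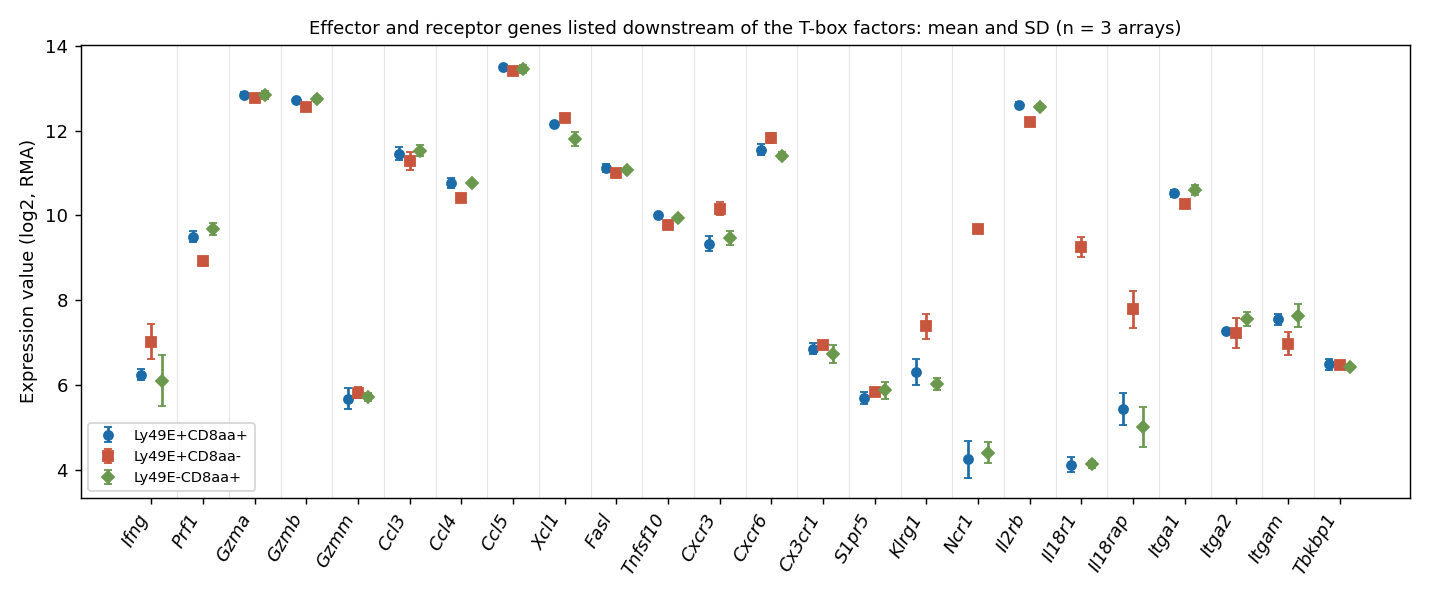
Expression values (log2, y axis) of the 24 effector and receptor genes listed downstream of T-bet and Eomes, as the mean with SD of 3 arrays in each population. Levels are comparable between populations within a gene, not between genes. Ncr1, Il18r1, Il18rap and Klrg1 stand higher in Ly49E+CD8aa- and Prf1 lower, while Gzma and Ccl5 lie close together in all populations.

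Of 16 genes that induce or work with Blimp-1, Il2ra, the IL-2 receptor alpha chain whose signal induces Prdm1, had the largest difference, opposite in sign to that of Prdm1. It was at 8.37 in Ly49E+CD8aa- and at 4.96 and 4.87 in Ly49E+CD8aa+ and Ly49E-CD8aa+, a difference of -3.41 in Ly49E+CD8aa+ minus Ly49E+CD8aa- (adjusted p = 5.47e-06 by limma). Irf4, a factor that can induce Prdm1, was the other of 2 genes called lower there by limma (-0.69, adjusted p = 0.014), as were 1.22% of all genes. In Ly49E+CD8aa- minus Ly49E-CD8aa+ the 2 genes called by limma were Il2ra (3.50) and Jun, an AP-1 subunit (0.55, adjusted p = 0.00796), both higher (1.35% of all genes). By limma, 0 of 16 passed between the CD8aa+ populations (0.13% of all genes) and 4 had an unadjusted p under 0.05 (4.18%). The largest differences were in Irf4 (-0.38) and its relative Irf8 (-0.37). The call of Irf4 was lost in 5 of 18 alternatives.

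Of 12 measured genes known to be repressed by Blimp-1, 2 passed in Ly49E+CD8aa- minus Ly49E-CD8aa+ (2.15% of all genes), 1 between the CD8aa+ populations (0.13% of all genes) and 0 in Ly49E+CD8aa+ minus Ly49E+CD8aa- (1.7% of all genes). Bcl6, which encodes a repressor that opposes Blimp-1, was higher in Ly49E+CD8aa- relative to Ly49E-CD8aa+, by 0.74 (adjusted p = 0.0219 by limma) and had a difference of -0.56 in Ly49E+CD8aa+ minus Ly49E+CD8aa- (adjusted p = 0.0919). Id3 had differences of -1.06 (adjusted p = 0.0873) in the latter and 0.88 (adjusted p = 0.165) in the former. The medians of the 12 were -0.26 in Ly49E+CD8aa+ minus Ly49E+CD8aa- and 0.25 in Ly49E+CD8aa- minus Ly49E-CD8aa+, against 0.03 and -0.02 over all genes. In the first, 0 were called and 5 had an unadjusted p under 0.05 (9.43% of all genes). In the second, 1 was called higher (1.35%) and 1 lower (0.802%). Spib was the lower one (-1.40, adjusted p = 0.0033), and with -1.32 (adjusted p = 0.0355) it was the 1 gene of the list called lower in Ly49E+CD8aa+ minus Ly49E-CD8aa+. The calls of Bcl6 and of Spib between the CD8aa+ populations were lost in 6 and 11 of 18 alternatives. Spib is also a gene of plasmacytoid dendritic cells, whose other markers are given with Zeb2.

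Around Zeb2, 1 of 15 genes of its paralogue, cofactors and TGF-beta path was called against Ly49E+CD8aa- in each comparison. The shares of all genes were 1.7% for Ly49E+CD8aa+ and 2.15% for Ly49E-CD8aa+. Smad3, a signal transducer of TGF-beta receptors, had a difference of -1.25 in Ly49E+CD8aa+ minus Ly49E+CD8aa- and of 1.12 in Ly49E+CD8aa- minus Ly49E-CD8aa+ (adjusted p = 0.00318 and 0.00515 by limma). The paralogue Zeb1 had differences of -0.14 and 0.03 in these comparisons and did not pass. By limma, 0 of 15 passed between the CD8aa+ populations (0.13% of all genes) and 1 had an unadjusted p under 0.05 (4.18%). The largest differences were in the corepressor gene Ctbp1 (-0.22) and the receptor gene Tgfbr2 (0.18). Genes known to be lower where Zeb2 acts in late effector cells moved in both directions. Of 7, 2 were called lower and 1 higher in Ly49E+CD8aa+ minus Ly49E+CD8aa- (1.22% and 0.476% of all genes). In Ly49E+CD8aa- minus Ly49E-CD8aa+, 2 were higher and 2 lower (1.35% and 0.802%). Il7r, the IL-7 receptor alpha chain, was at 10.37 in Ly49E+CD8aa-, 6.45 in Ly49E-CD8aa+ and 4.92 in Ly49E+CD8aa+. It was the 1 of 7 called between the CD8aa+ populations (-1.52, adjusted p = 0.0303, 0.13% of all genes), a call lost in 10 of 18 alternatives. Itgae, the integrin chain that binds E-cadherin on epithelium, was higher in Ly49E+CD8aa+ relative to Ly49E+CD8aa-, by 0.31 (adjusted p = 0.04), and lost that call in 13 of 18 alternatives. In Ly49E+CD8aa- minus Ly49E-CD8aa+ the lower pair was Itgae (-0.34) and the survival gene Bcl2 (-0.34, adjusted p = 0.0213 and 0.0346), whose calls were lost in 7 and 11 of 18 alternatives, and the higher pair in that comparison was Il7r and Cxcr3.

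Of 15 genes of Hopx partners and AP-1, the transcription factor whose genes Hopx is known to restrain, 1 was called in each comparison with Ly49E+CD8aa-. The shares of all genes were 1.7% for Ly49E+CD8aa+ and 2.15% for Ly49E-CD8aa+. Fosb had a difference of -1.45 in Ly49E+CD8aa+ minus Ly49E+CD8aa- (adjusted p = 0.033 by limma), and Jun was the 1 called in Ly49E+CD8aa- minus Ly49E-CD8aa+. The call of Fosb was lost in 8 of 18 alternatives. Between the CD8aa+ populations 0 of 15 passed by limma (0.13% of all genes) and 1 had an unadjusted p under 0.05 (4.18%). There Fosb (-0.23) and Hdac3 (-0.21) differed most. Srf, Hdac2 and Epc1, partners of Hopx in chromatin and transcription, differed by -0.13, -0.24 and 0.08 in Ly49E+CD8aa+ minus Ly49E+CD8aa- and did not pass. Other T-box genes (13 measured) and other Prdm genes (12 measured) had 0 calls by limma in all 3 comparisons (0.13% to 2.15% of all genes). At most 1 and 2 of them were at an unadjusted p under 0.05 in any comparison, against 4.18% to 10.4% of all genes. The differences ran from -0.15 to 0.21 in the T-box genes, the highest being that of Tbr1, a brain T-box factor, in Ly49E+CD8aa+ minus Ly49E+CD8aa-, followed there by Tbx6 (0.17). Mga had the highest in Ly49E+CD8aa- minus Ly49E-CD8aa+ (0.18). In the Prdm genes they ran from -0.36 to 0.24, the ends being Prdm4 in Ly49E+CD8aa- minus Ly49E-CD8aa+ and Prdm14 in Ly49E+CD8aa+ minus Ly49E-CD8aa+, while Prdm11 (0.23) and Prdm13 (0.17) had the largest in Ly49E+CD8aa+ minus Ly49E+CD8aa-.

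Several marker lists differed between the populations. The mean over 26 immediate early and stress genes was higher in Ly49E+CD8aa-. It lay at 8.69 to 8.85 on the Ly49E+CD8aa- arrays, 8.06 to 8.27 in Ly49E+CD8aa+ and 8.01 to 8.19 in Ly49E-CD8aa+. Of the 26, 8 were called higher in Ly49E+CD8aa- against Ly49E+CD8aa+ (1.22% of all genes) and 9 against Ly49E-CD8aa+ (1.35%). In both comparisons 0 were called lower. Nr4a1, an orphan nuclear receptor gene, had differences of -2.29 (Ly49E+CD8aa+ minus Ly49E+CD8aa-) and 2.08 (Ly49E+CD8aa- minus Ly49E-CD8aa+), Gadd45b of -1.59 and 1.88, and Dusp4, a phosphatase gene, of -1.44 and 1.45. Nfkbia, which encodes an inhibitor of NF-kappaB, differed by 1.12 in the second of these, a call lost in 3 of 18 alternatives. Some members ran against the list mean and did not pass, such as Nr4a2 (0.28 and -0.27 in the same order of comparisons) and Ier3 (0.29 and -0.36). By limma, 0 of 26 passed between the CD8aa+ populations (0.13% of all genes) and 1 had an unadjusted p under 0.05 (4.18%). The largest differences were in Egr2 (0.31) and Gadd45b (0.29). The list means of Ly49E+CD8aa- arrays did not overlap with the others, as for Eomes and Prdm1, and the part of these genes in the differences of both was not tested. NK cell markers had a list mean of 8.54 to 8.60 over 12 genes in Ly49E+CD8aa- and of 6.57 to 6.78 in the CD8aa+ populations. In Ly49E+CD8aa- minus Ly49E-CD8aa+, 6 of the 12 were called higher (1.35% of all genes) and 1, Prf1, lower (0.802%). In Ly49E+CD8aa+ minus Ly49E+CD8aa-, 6 were lower (1.22%) and Prf1 was higher (0.476%). Itgam ran the same way as Prf1 (-0.66 in Ly49E+CD8aa- minus Ly49E-CD8aa+) and did not pass. The part of the NK cell markers in the difference of Eomes was not tested. T cell markers were at 8.04 to 8.34 over 12 genes in Ly49E+CD8aa- and at 7.62 to 7.87 in the CD8aa+ populations. In Ly49E+CD8aa+ minus Ly49E+CD8aa-, 2 were called higher and 2 lower (0.476% and 1.22% of all genes). Thy1 (-3.95) and Cd28 (-2.54) were the lower pair (adjusted p = 2.88e-05 by limma for each). Themis (1.28, adjusted p = 0.0373) and Cd3e (adjusted p = 0.0263) were the higher pair, against the direction of the list mean. Among members that did not pass, Cd3d (0.67) and Cd3g (0.21) were also higher, and some others were lower. The median of the 12 in that comparison was 0.02, against 0.03 over all genes. In Ly49E+CD8aa- minus Ly49E-CD8aa+, 3 of the 12 were called higher (1.35% of all genes), among them Thy1 and Cd28. In the same comparison 1 was called lower (0.802%), Cd3e. The part of this list in the differences of Eomes and Prdm1 was not tested.

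Among enterocyte markers, 0 of 15 were called in any comparison by limma (0.13% to 2.15% of all genes). In each, 1 of 15 was at an unadjusted p under 0.05, against 4.18% to 10.4% of all genes. Their mean was highest in replicate 1 of each population (8.40, 8.52 and 8.45 for Ly49E+CD8aa+, for Ly49E+CD8aa- and for Ly49E-CD8aa+) and lay between 7.59 and 7.99 on the other arrays. Replicate 1 of Ly49E+CD8aa- was also the array with the lowest Eomes and the highest Prdm1 of its population. Without it the difference of Eomes was -3.12 in Ly49E+CD8aa+ minus Ly49E+CD8aa-. In each CD8aa+ population, replicate 1 lay between the other arrays for both genes. The part of the enterocyte markers in the values of Eomes and Prdm1 was not tested. Crypt base markers, which include stem cell genes, lay at 5.58 to 5.73 on all arrays. Of these 9, 0 were called in any comparison by limma (0.13% to 2.15% of all genes). At most 1 was at an unadjusted p under 0.05 (4.18% to 10.4%). B and plasma cell markers, which could hold Prdm1 RNA, lay at 5.40 to 5.60 over 9 genes, and the ranges of Ly49E+CD8aa+ and Ly49E+CD8aa- overlapped. Their plasma cell genes differed in both directions in Ly49E+CD8aa+ minus Ly49E+CD8aa-, with Sdc1 at -0.47 (adjusted p = 0.0271 by limma) and, not passing, Jchain at 0.34 (adjusted p = 0.296) and Xbp1 at -0.12. The part of these markers in the difference of Prdm1 was not tested.

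Markers of plasmacytoid dendritic cells, which use Zeb2, were higher in Ly49E-CD8aa+, at 7.25 to 7.82 on average over 10 genes against 6.59 to 6.72 in Ly49E+CD8aa+ and 6.80 to 6.92 in Ly49E+CD8aa-. In Ly49E+CD8aa+ minus Ly49E-CD8aa+, 5 of 10 were called lower (0.11% of all genes), among them Siglech (-1.98), and Ccr9 (0.41) and Pacsin1 (0.05) did not go that way. Ccr9 was higher in Ly49E+CD8aa- minus Ly49E-CD8aa+ (2.00, adjusted p = 0.000607 by limma). Conventional dendritic cell markers were at 6.35 to 6.62 over 10 genes in Ly49E-CD8aa+, 5.87 to 5.97 in Ly49E+CD8aa+ and 6.15 to 6.27 in Ly49E+CD8aa-. Macrophage and monocyte markers had a list mean of 5.40 to 5.67 over 12 genes in Ly49E-CD8aa+ and of at most 5.15 elsewhere. In Ly49E+CD8aa+ minus Ly49E-CD8aa+, 2 of the 12 were called lower (0.11% of all genes), Cybb (-2.48) and Mpeg1 (-1.75). With the 6 arrays of that comparison alone 0 genes were called by limma. The calls of these 2 and of the 5 plasmacytoid dendritic cell markers were thus lost there. The median of the 12 was -0.11. Some members, such as Lyz2 (0.18), went the other way. Ccr2 was highest in Ly49E+CD8aa- (6.92, against 5.90 in Ly49E-CD8aa+). The highest array of Zeb2 was in Ly49E+CD8aa-. The part of these markers in the difference of Zeb2 between the CD8aa+ populations, which did not pass, was not tested.

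**Figure D4:**
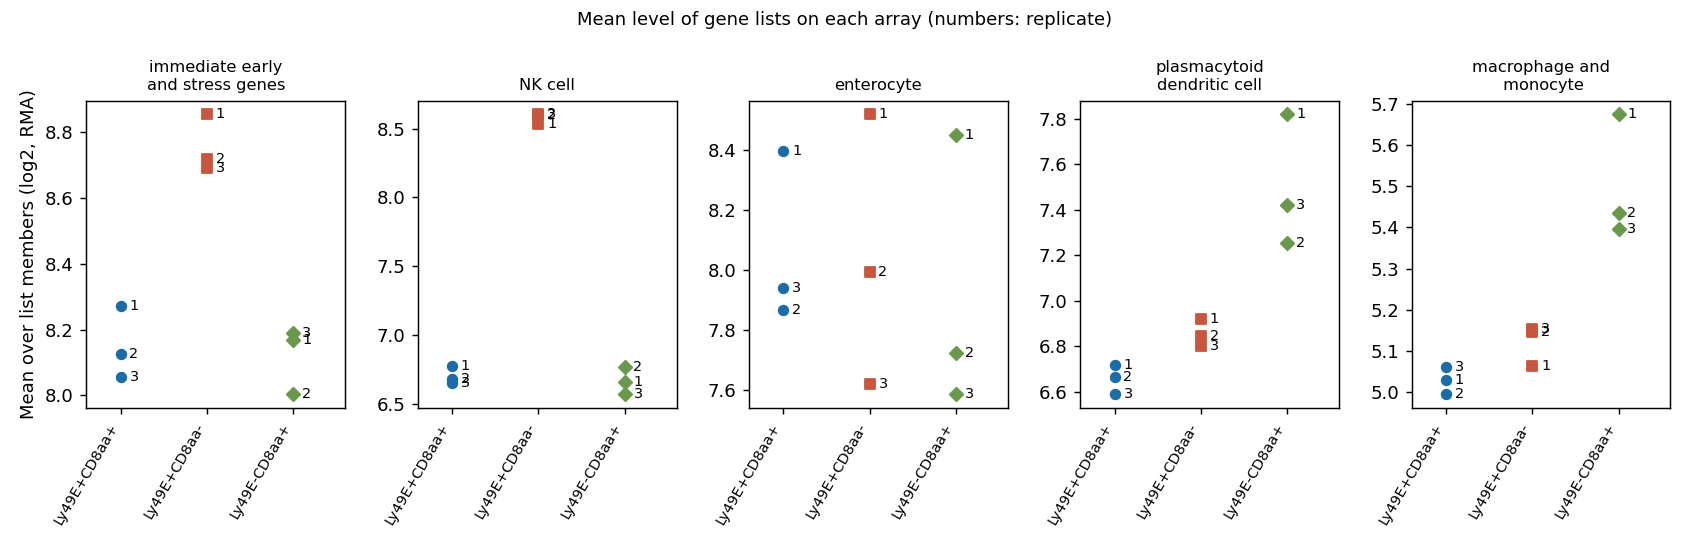
Mean log2 value over the members of 5 gene lists (y axes with a separate range for each list) on each array, with the replicate number beside each point. The means of immediate early and NK cell genes are higher in all 3 Ly49E+CD8aa- arrays. The mean of enterocyte genes is highest in replicate 1 of each population. The means of plasmacytoid dendritic cell and macrophage genes are higher in Ly49E-CD8aa+. Not all members of a list go the way of its mean.

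The genes whose values ran most like each factor over the 9 arrays were found by Pearson correlation over all genes tested. The arrays form unequal groups, with Ly49E+CD8aa- apart for Eomes and Prdm1, and these values are a description with no test. Nearest to Eomes were Tab2 (r = 0.995), Gstp3 (0.987), Klrc3 (0.977), Klrk1, the receptor NKG2D (0.975), and Satb1, a chromatin organiser of lymphocytes (0.975). Klrk1 stood at 9.85 in Ly49E+CD8aa- and at 4.38 and 4.65 in Ly49E+CD8aa+ and Ly49E-CD8aa+, and Satb1 at 8.62, 5.85 and 5.72 in the same order. Klrc3 and its relatives are open to cross-hybridisation.

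Nearest to Tbx21 were Eya1 (0.959), the immediate early gene Ier5 (0.944), Nbn (0.943), Elmo1 (0.932) and Irf4 (0.929). Ier5 is in the list of immediate early genes above and Irf4 in that of Blimp-1 inducers, although Tbx21 itself did not pass. Prdm1 ran most like Cpd (0.985), Atpif1 (0.982), Rab39 (0.981), Glp1r, the GLP-1 receptor (0.969), and Gpd2, a mitochondrial glycerol-phosphate dehydrogenase (0.968). Glp1r was at 9.31 in Ly49E+CD8aa-, 10.37 in Ly49E+CD8aa+ and 10.32 in Ly49E-CD8aa+. Plaur (0.960), Rgs18 (0.950), Slurp2 (0.927), Olfr1324 (0.922) and Gm4951 (0.920) ran most like Zeb2. Smim27 (0.960), Pnpla6 (0.938), Wdr24 (0.937), Ndufaf7 (0.932) and Napsa (0.927) ran most like Hopx, where differences between populations were small.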

How the data were processed

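RNA of 3 sorted populations was measured on 9 single-channel arrays. The deposited values were log2 expression values made with RMA by the authors, per the submitters' processing notes (version, genome build and annotation: not given in the sources used here). That the scale is log2 follows from the range, which ran from 1.84 to 13.84. Of 35556 rows, 21789 had 1 gene symbol in the platform annotation, 21698 of them matched to a current gene record, and 1621 had several and were not used. For each of the 999 genes with several rows the brightest row on average was kept, which left 19938 genes. No filter on dim rows was used. All 5 factors passed the one tried as an alternative, which took the mean over all 9 arrays. For Eomes that mean includes its higher values in Ly49E+CD8aa-. Eomes read 4.32 in Ly49E+CD8aa+ and 4.58 in Ly49E-CD8aa+, both under the 25th percentile of all gene values (4.71). Passing the filter thus says nothing of its level in the CD8aa+ populations.

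A mean per population was fitted to all 9 arrays with limma 3.58.1 in R 4.3.3 (lmFit and eBayes, no block). Calls are 2-sided and need a Benjamini-Hochberg adjusted p over 19938 genes under 0.05. Differences are the first-named population minus the second. The labels call the arrays biological replicates but do not say whether they came from separate mice. The p-values thus measure the spread between these arrays, which may not be the spread between mice. The number of arrays limits the precision. The fit was tested on simulated data for Ly49E+CD8aa+ minus Ly49E+CD8aa-. Of planted log2 differences of 1, 89.6% were recovered, and 5.39% of the calls were false. Smaller differences, such as those of Prdm1 and Tbx21, were not simulated.

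The genes and the lists were chosen with earlier results of these data known. From each list of related genes the called members with the 4 largest absolute differences per comparison were named, or at most 2 members where none was called, and for each factor the 5 genes with the highest Pearson correlation. Genes named beyond this (Ifng, Gzma, Gzmb, Ccl5, Prf1, Stat4, Il12rb2, Runx3, Nfil3, Zeb1, Srf, Hdac2, Epc1, Cxcr6, Cx3cr1, S1pr5, Cd8b1, Cd3e, Cd3d, Cd3g, Themis, Thy1, Cd28, Itgam, Siglech, Ccr9, Pacsin1, Cybb, Mpeg1, Lyz2, Ccr2, Sdc1, Jchain, Xbp1, Nr4a2 and Ier3) were chosen after their values were seen. List members without a row of 1 symbol were not analysed here. Sequences are from RefSeq (GRCm38.p6), and no array row was placed on the genome. Alternatives were a replicate block, the 6 arrays of a comparison, a filter at the 25th percentile, quantile normalization, median centring, an intensity trend, a robust prior, all rows, row means and each array left out.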

Additional observations from a re-analysis of the deposited data

How the results depend on the processing

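Across 18 alternatives the calls of Eomes were kept, with differences of -3.12 to -2.66 (Ly49E+CD8aa+ minus Ly49E+CD8aa-) and 2.40 to 2.86 (Ly49E+CD8aa- minus Ly49E-CD8aa+), as was that of Prdm1 in the latter (-0.59 to -0.49, limma adjusted p from 0.00603 to 0.0451). In Ly49E+CD8aa+ minus Ly49E+CD8aa-, Prdm1 missed the threshold with the 6 arrays compared (0.512, adjusted p = 0.0526) and ranged from 0.453 to 0.571 with an array left out. The adjusted p of its F test ranged from 0.0194 to 0.0744 with an array left out. The uncalled differences between the CD8aa+ populations changed sign for Prdm1 when centred on array medians (0.00145) and ranged from -0.0751 to 0.0238 for Prdm1 and from -0.0692 to 0.0689 for Hopx with an array left out. No difference of Tbx21, Zeb2 or Hopx passed in any alternative.

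Counts over all genes moved more. The F test called 405 genes, and 248 to 332 with an array left out, 248 without Ly49E+CD8aa- replicate 3. Between the CD8aa+ populations 26 genes were called, 5 to 32 with an array left out, and 0 with the 6 arrays compared, where 695 had an unadjusted p under 0.05. The call of Klra5 between these populations was thus lost with the 6 arrays as well. In Ly49E+CD8aa- minus Ly49E-CD8aa+, 429 genes became 263 with 6 arrays. These fits held fewer arrays, and the cause of the changed counts was not tested. Of 42 calls of named list genes, 22 were kept in all 18 alternatives. Genes named only as sort or cell type markers were not counted among the 42.

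With a block for the replicate number, 17 genes were called between the CD8aa+ populations, 374 in Ly49E+CD8aa+ minus Ly49E+CD8aa- and 417 in Ly49E+CD8aa- minus Ly49E-CD8aa+, and no call of the 5 factors changed (Prdm1 adjusted p = 0.0312 and 0.0244 in the last pair of comparisons). Same-numbered arrays correlated from -0.0627 to 0.222 in their deviations from the population means, 4 of 9 pairs over 0.1, among them all 3 pairs of replicate 1. Different-numbered arrays correlated from -0.169 to 0.103, 1 of 18 pairs over 0.1. Among the 3 arrays of another population, an array correlated best with its own number in 10 of 18 cases, where 1 of each 3 arrays has that number. Not every same-numbered pair was over 0.1, and the labels do not say whether the numbers pair the samples, so the main fit used no block. Whether same-numbered arrays shared a source of spread was not tested.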
